A study of Sus scrofa with 18 samples.

Results

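The genes described here are 34 genes of the endoplasmic reticulum (ER) chaperone system and of the unfolded protein response in porcine alveolar macrophages, the phagocytes that live in the airspaces of the lung. They were taken by gene symbol from the 30686 genes of the deposited count table: 14 chaperones and folding factors, 3 stress sensors, 2 other transcription factors, 7 genes of the ATF4 branch and 8 genes of protein translocation and degradation. All 34 were found under 1 symbol each, and all 34 passed the filter on low counts that left 13592 genes for testing. Messenger RNA was sequenced from macrophages of healthy Danish Landrace-Yorkshire pigs after 24 hours of treatment in culture, in 3 libraries per treatment and 18 in all. The treatments were poly I:C, Bacillus subtilis, Enterococcus faecium, B. subtilis with poly I:C, E. faecium with poly I:C, and control cells that received no treatment. Poly I:C, a man-made double-stranded RNA, stands in for viral RNA, and both bacteria are used as probiotics. The dose of each agent, the strain of each bacterium and its viability were not given in the sources used here. Each library is labelled with a pig numbered 1 to 3, and the labels name no genetic change.

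The ER folds secreted and membrane proteins with the help of chaperones. When unfolded proteins build up, HSPA5 (BiP) leaves 3 sensors of the ER membrane. IRE1, encoded by ERN1, then splices the XBP1 messenger; PERK, encoded by EIF2AK3, phosphorylates eIF2 and so favours translation of ATF4; and ATF6 is cut by proteases in the Golgi to a transcription factor. ATF6 and XBP1 drive genes of chaperones, translocation and degradation. ATF4 drives genes of amino acid supply, of redox balance and of recovery of translation, and it also answers eIF2 kinases outside the ER. In macrophages XBP1 and ATF4 are also known to take part in inflammatory signalling. Counts per gene do not tell the spliced XBP1 messenger from the unspliced one, and they show neither cleavage of ATF6 nor phosphorylation of PERK.

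The libraries held 16346750 to 27274279 counts, and the factors that scale their totals (TMM) ran from 0.664 to 1.38. The pig numbers did not describe how the libraries resembled each other. The 500 genes other than the 34 that varied most within treatments were used to assign the 18 libraries to 3 sets, each with 1 library of every treatment, so that libraries of a set correlated as highly as possible; the sets are named A, B and C after control pigs 1, 2 and 3. After the treatment means were removed, libraries of the same set correlated across these genes with r of 0.73 to 0.92 (median 0.86, 45 pairs), and libraries of the same pig number with r of -0.55 to 0.89 (median -0.34, 45 pairs). In 8 libraries of 3 treatments (E. faecium with poly I:C, and each bacterium alone) the set differed from the set of the control library with the same number. Values of a treatment are therefore listed in the order of sets A, B and C, and results with the set as a block, whose p-values take the sets as given, are given beside those without it where a call differs. Differences within a set are of log2 CPM with a prior count of 2, which draws those of low genes towards 0. A further pattern lay in the length of genes: with B. subtilis and poly I:C, 2 of 3 libraries (numbers 1 and 3, sets A and C) had high levels of genes with a short genomic span and low levels of genes with a long one. Over 13341 genes, the rank correlation of level relative to the other libraries with span was -0.28 and -0.24 in these libraries, 0.23 in library 2 of the same treatment and -0.19 in poly I:C library 1.

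The macrophage label was met by most of its markers, among them CD68 at 289 to 778 CPM and MRC1 at 202 to 656 CPM (counts scaled to a common library total). The 16 genes of the list for alveolar macrophages summed to 8200 to 34400 CPM, of which APOE alone made 4240 to 26000 CPM. MARCO ran from 6.62 to 189 CPM. FABP4 (0.827 to 5.86 CPM) and CHIT1 (0 to 0.327 CPM) were the lowest. Markers of plasma and B cells, whose secretory cells are rich in ER, summed to 404 to 1870 CPM, and JCHAIN, the joining chain of secreted antibodies, alone made 382 to 1780 CPM. In that list MS4A1 (0 to 0.874 CPM) and PAX5 (0.0558 to 1.85 CPM) were near 0. The lists for T and NK cells (296 to 544 CPM), epithelium (29.4 to 392 CPM) and endothelium and fibroblasts (1.91 to 9.42 CPM) made up less of the counts than the macrophage list. NKG7 alone made 195 to 476 CPM of the first, and EPCAM alone 27.5 to 389 CPM of the second. The list for neutrophils and mast cells ran from 1220 to 8960 CPM, nearly all of it S100A8, S100A9 and S100A12. Its other genes were mixed. MPO and CPA3 were at 0 in all 18 libraries and ELANE was at 0 to 0.164 CPM. CXCR2 was at 2.86 to 49.6 CPM, CSF3R at 21.1 to 110 CPM, KIT at 0.737 to 3.5 CPM and MS4A2 at 0.46 to 3.34 CPM. In such bulk samples, fewer cells of a type and less RNA per cell cannot be told apart.

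Treatments that contained poly I:C raised most of the ATF4 branch, XBP1, the translocon and part of the chaperones, and left the messengers of the 3 sensors below the threshold of the test without a block. Of the 34 genes, 20 differed among the 6 treatments at an adjusted p of 0.05 (edgeR's quasi-likelihood test, adjusted over all genes tested), against 29.7% of all genes. These were 9 of 14 chaperones, 0 of 3 sensors, 1 of 2 other transcription factors, 6 of 7 genes of the ATF4 branch and 4 of 8 genes of translocation and degradation. A block for the library set gave 23 of the 34 genes, against 58.1% of all genes; PDIA4 (adjusted p = 0.00191), PDIA6 (adjusted p = 0.0126) and the sensor ERN1 (adjusted p = 0.00738) were added, which made 11 of 14 chaperones and 1 of 3 sensors. Without the block, the count was 18 to 23 when any 1 library was left out, and the count over all genes was 3174 to 6124.

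**Figure D1:**
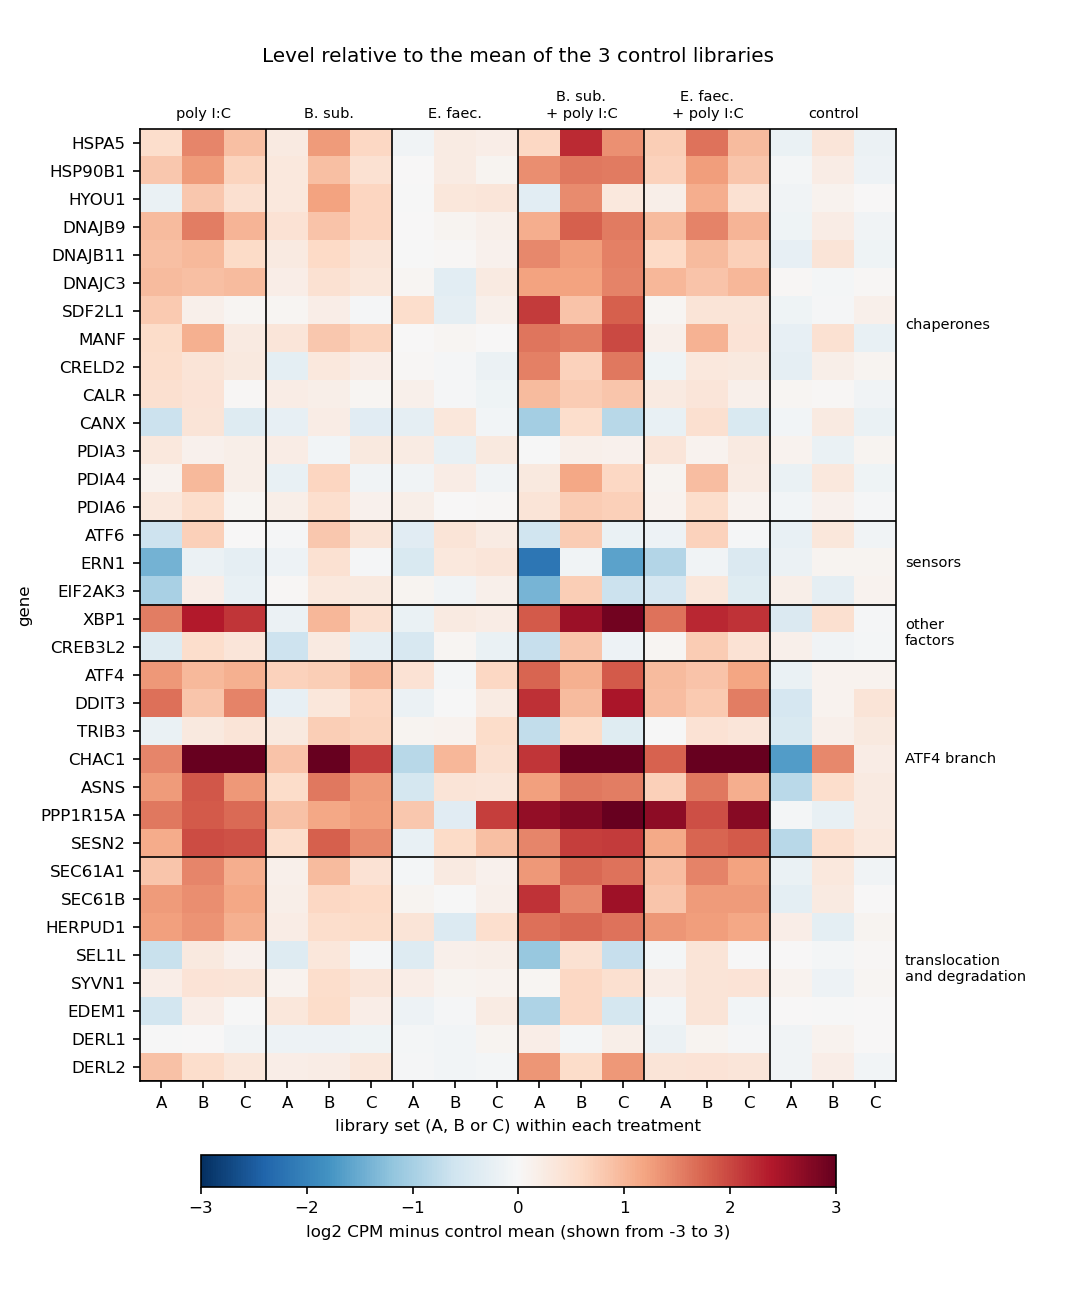
Log2 CPM of the 34 genes (rows, by role) in 18 libraries (columns, by treatment and library set) minus the mean of the 3 control libraries. CHAC1 exceeds the end of the colour scale in some libraries; XBP1, the ATF4 branch and SEC61A1, SEC61B and HERPUD1 are red in all 9 libraries with poly I:C except TRIB3, while ERN1 is below control in all 9.

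Poly I:C alone against control raised 15 of the 34 genes and lowered 0, against 22.5% of all genes tested that passed in either direction. The median log2 fold change was 0.53 over the 34 genes and -0.01 over all genes. By role, 4 of 14 chaperones, 0 of 3 sensors, 1 of 2 other transcription factors, 6 of 7 genes of the ATF4 branch and 4 of 8 of translocation and degradation rose. In 19 of the 34 genes all 3 poly I:C libraries lay above all 3 control libraries, as they did in 19.4% of all genes, and in 1 gene, ERN1, all 3 lay below, against 19.2% of all genes. For ERN1 the highest poly I:C library and the lowest control library were both at 34.3 CPM after rounding. A block for the library set gave 18 genes that rose, against 41.7% of all genes that passed in either direction; HSPA5, MANF and PDIA4 were added. With B. subtilis and poly I:C against control, 21 genes rose and 0 fell, against 35.6% of all genes. With the block 23 rose and 1 fell, against 54.6% of all genes: PDIA4 (0.69, SE 0.14, adjusted p = 0.000644) and SYVN1 (0.39, SE 0.14, adjusted p = 0.0318) were added to those that rose, and ERN1 fell. With E. faecium and poly I:C against control, 14 genes rose and 0 fell, against 23.1% of all genes. With the block 17 rose and 0 fell, against 42.8% of all genes; MANF (0.55, SE 0.20, adjusted p = 0.0392), PDIA4 (0.42, SE 0.14, adjusted p = 0.0232) and CHAC1 were added. These 3 comparisons share their control libraries.

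HSPA5 (chr1:265930044-265934959 of Sscrofa11.1), the BiP chaperone that binds unfolded proteins and holds the sensors inactive, had 523, 995 and 673 CPM with poly I:C in sets A, B and C. It had 557, 1690 and 929 CPM with B. subtilis plus poly I:C, 603, 1120 and 701 CPM with E. faecium and poly I:C, and 316, 467 and 320 CPM in control. All 9 libraries with poly I:C were above all 3 controls, and set B was the highest in each treatment. The log2 fold change with poly I:C was 0.99 (SE 0.39, adjusted p = 0.0824), short of the threshold. With the library set as a block it was 0.96 (SE 0.19, adjusted p = 0.000992) and passed. HSPA5 rose with B. subtilis and poly I:C by 1.53 (SE 0.39, adjusted p = 0.00752), which became 1.01 without library 2 of that treatment and 2.20 without libraries 1 and 3. With E. faecium and poly I:C it rose by 1.14 (SE 0.39, adjusted p = 0.0471), a call that was lost when any 1 of these 3 libraries or of the 3 control libraries was left out.

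The chaperones that rose with poly I:C alone were HSP90B1, DNAJB9, DNAJB11 and DNAJC3. DNAJC3 (chr11:65230145-65299084), a J-domain partner of HSPA5 also called p58IPK, had 149, 144 and 150 CPM with poly I:C and 78.8, 74.5 and 78.9 CPM in control. It had 180, 178 and 216 CPM with B. subtilis plus poly I:C, and 154, 141 and 154 CPM with E. faecium plus poly I:C. The 3 libraries of a treatment lay close together and no group with poly I:C overlapped control. The log2 fold changes were 0.93 (SE 0.16, adjusted p = 0.000631) with poly I:C, 1.31 (SE 0.16) with B. subtilis plus poly I:C, and 0.95 (SE 0.16) with E. faecium and poly I:C. DNAJB11 (chr13:124387921-124409967), another J-domain partner of HSPA5, had 79.3, 83.3 and 63 CPM with poly I:C and 35.6, 55.2 and 38.6 CPM in control. It had 115, 102 and 121 CPM with B. subtilis plus poly I:C, and 63.6, 81.5 and 69.1 CPM with E. faecium plus poly I:C. The groups again did not overlap control, and DNAJB11 rose by 0.80 (SE 0.18, adjusted p = 0.0051) with poly I:C alone. The set B control library was the highest control for both HSPA5 and DNAJB11.

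DNAJB9 (ERdj4), which hands misfolded proteins to degradation and represses IRE1, rose by 1.18 (SE 0.22, adjusted p = 0.00146) with poly I:C. HSP90B1 (GRP94), the ER form of HSP90 that folds Toll-like receptors and integrins, rose by 0.94 (SE 0.22, adjusted p = 0.00639). Both rose with either combined treatment too, by 1.49 and 1.50 with B. subtilis plus poly I:C and by 1.16 and 0.94 with E. faecium plus poly I:C. The lectin chaperone CANX and the disulfide isomerase PDIA3, which fold glycoproteins together, did not pass in any of these comparisons. CANX was at -0.16 (SE 0.39) and PDIA3 at 0.21 (SE 0.18) with poly I:C. The other chaperones that did not pass with poly I:C alone were HYOU1 (a nucleotide exchange factor of HSPA5), SDF2L1, MANF, CRELD2, CALR, PDIA4 and PDIA6, at log2 fold changes of 0.31 to 0.63. Of these, MANF (0.63, SE 0.20) and the isomerase PDIA4 (0.42, SE 0.14) passed with the library set as a block, at adjusted p of 0.0196 and 0.0238.

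With B. subtilis and poly I:C against control, 10 of 14 chaperones rose, and SDF2L1, MANF, CRELD2, CALR and PDIA6 were among them. SDF2L1, which keeps HSPA5 clients from aggregating, had 60.8, 25.8 and 49.2 CPM with B. subtilis and poly I:C against 13.1, 13.8 and 15.9 CPM in control. MANF, a secreted ER protein that binds HSPA5, had 131, 124 and 168 CPM in the combined treatment against 36.1, 58.7 and 36.8 CPM in control. CRELD2, a secreted stress-induced protein, had 75.8, 43.1 and 79.3 CPM in the combined treatment against 21.9, 30.2 and 28.1 CPM in control. None of the 3 overlapped control, and for SDF2L1 and CRELD2 the library of set B stood clearly below the other 2. The fold changes were 1.66 (SE 0.29, adjusted p = 0.000521), 1.68 (SE 0.27, adjusted p = 0.000245) and 1.30 (SE 0.23, adjusted p = 0.000613) for SDF2L1, MANF and CRELD2. SDF2L1, MANF, CRELD2 and CALR span 2.03, 3.94, 7.72 and 3.81 kb of the genome, and the lower quartile of span over all genes was 9.31 kb. Libraries 1 and 3, in which short genes were high, held the highest values of SDF2L1, MANF and CRELD2; the part of gene length was not tested. Without these libraries, 1 library of the treatment remained, whose spread was taken to be like that of the other groups. Then 17 of the 34 genes passed (15.1% of all genes); SDF2L1 (0.85), CRELD2 (0.68), DDIT3 (0.91), ASNS (1.46) and DERL2 (0.54) no longer passed, the calls of MANF (1.49), CALR (0.75) and PDIA6 (0.76) remained, and HYOU1 (1.42, adjusted p = 0.0264) was added. MZB1, an ER co-chaperone of antibody-secreting cells, rose in this comparison as well, by 1.71 (SE 0.60, adjusted p = 0.0365), with 118, 132 and 279 CPM in the combined treatment against 23.4, 79.7 and 58.8 CPM in control. JCHAIN had 620, 1550 and 1780 CPM with B. subtilis plus poly I:C, and 411, 1100 and 943 CPM in control, a log2 fold change of 0.69 (SE 0.57, adjusted p = 0.373). With poly I:C alone, JCHAIN had 542, 1720 and 960 CPM, at 0.40 (SE 0.57, adjusted p = 0.673). Over the 9 tested plasma and B cell markers, 0 passed with poly I:C alone, and 1 rose in the combined treatment, POU2AF1, a B cell coactivator (1.47, SE 0.42, adjusted p = 0.0137); their part in the chaperone values was not tested. Other marker lists differed too. The neutrophil and mast cell list summed to 3510 to 8960 CPM with B. subtilis plus poly I:C and to 1320 to 3410 CPM in control, with 1 of its 7 tested genes higher and 1 lower past the threshold. The alveolar macrophage list, in which APOE was the largest gene, summed to 10900 to 34400 CPM in the combined treatment and to 8940 to 11400 CPM in control. Of its 15 tested genes, 4 rose and 1 fell. The epithelial list, nearly all EPCAM, was at 67.7 to 346 CPM in the combined treatment and 29.4 to 154 CPM in control. Its median log2 fold change was 1.22 with 0 of 7 past the threshold, and 12 of its 13 genes had a median under 1 CPM. The part of these cells in the chaperone values was not tested either.

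**Figure D2:**
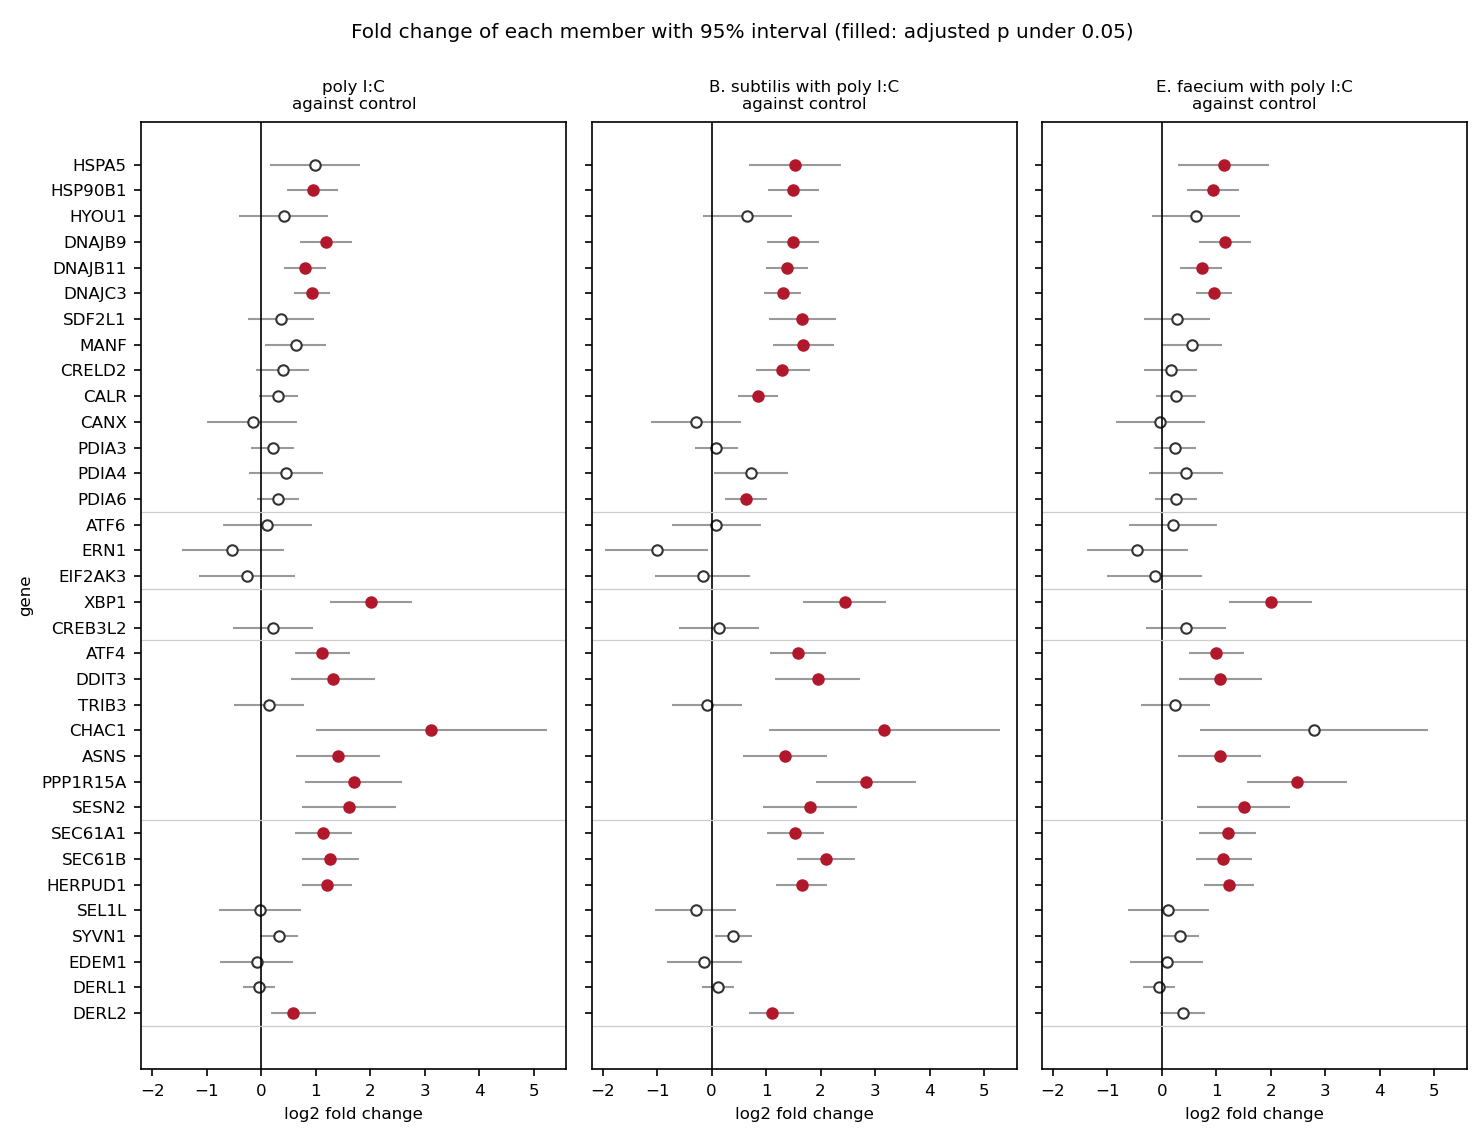
Log2 fold change against control (points, with 95% confidence intervals) of each of the 34 genes for poly I:C, B. subtilis with poly I:C and E. faecium with poly I:C, by role. Filled points passed an adjusted p of 0.05: 15, 21 and 14 genes, all to the right of 0, with the 3 sensors (ATF6, ERN1, EIF2AK3) open in every panel.

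The 3 sensors passed in no comparison of treatments when all 18 libraries were used without a block. ERN1 (chr12:14881913-14963290), which encodes IRE1, had 14.5, 34.3 and 32.4 CPM with poly I:C, against 34.3, 41.3 and 41.3 CPM in control. It had 8.56, 36.3 and 12.7 CPM with B. subtilis plus poly I:C, and 21.2, 35.9 and 28.6 CPM with E. faecium and poly I:C. In each set every library with poly I:C was lower than the control library, and the lowest were libraries 1 and 3 of B. subtilis with poly I:C. The log2 fold changes were -0.53 (SE 0.44, adjusted p = 0.444) with poly I:C, -1.01 (SE 0.44, adjusted p = 0.0881) with B. subtilis plus poly I:C, and -0.45 (SE 0.44, adjusted p = 0.513) with E. faecium and poly I:C. With the library set as a block the second was -1.19 (SE 0.28, adjusted p = 0.00245) and passed, and the first was -0.62 (SE 0.28, adjusted p = 0.0848). ERN1 spans 81.4 kb, above the upper quartile of 59.6 kb, and its lowest libraries are also those in which long genes were low. Without library 2 of B. subtilis with poly I:C, the 2 libraries left gave falls against control in both ERN1 (-1.87, SE 0.38, adjusted p = 0.00132) and EIF2AK3 (-0.98, SE 0.33, adjusted p = 0.0278), and also in CANX (-0.94), SEL1L (-0.90) and EDEM1 (-0.72), which span 36.8, 63.6 and 28.6 kb. Long genes were not all lower in these libraries. Against poly I:C alone in sets A and C, DNAJC3 (68.9 kb) differed by 0.28 and 0.52 and ATF6 (215 kb) by 0.04 and -0.20. CREB3L2 (133 kb) differed by -0.32 and -0.51, EIF2AK3 (82.4 kb) by -0.41 and -0.42, and SEL1L by -0.48 and -0.80. The part of gene length was not tested.

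EIF2AK3 (chr3:57423894-57506247), which encodes PERK, had 17.4, 39.2 and 29.7 CPM with poly I:C, 13.1, 57.4 and 22.1 CPM with B. subtilis plus poly I:C, 24.3, 43.9 and 26.7 CPM with E. faecium and poly I:C, and 38.6, 28.5 and 36.9 CPM in control. In all 3 treatments with poly I:C it was above control in set B and below it in sets A and C. The log2 fold change with poly I:C was -0.27 (SE 0.41, 95% interval -1.15 to 0.61). ATF6 (chr4:88591279-88806156) had 56, 141 and 87.4 CPM with poly I:C, 57.6, 147 and 75.8 CPM with B. subtilis plus poly I:C, 78.4, 140 and 85 CPM with E. faecium and poly I:C, and 74.2, 109 and 80.2 CPM in control. All groups overlapped control, and the order of the sets, A lowest and B highest, held in each treatment. Its fold change with poly I:C was 0.11 (SE 0.38, 95% interval -0.70 to 0.93), an interval that leaves a moderate change in either direction possible.

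Of the other transcription factors, XBP1 rose with poly I:C and CREB3L2 did not pass. XBP1 (chr14:46011239-46016526) had 281, 508 and 432 CPM with poly I:C, against 71.2, 135 and 94.6 CPM in control. It had 349, 571 and 717 CPM with B. subtilis plus poly I:C, and 301, 467 and 436 CPM with E. faecium and poly I:C. Each library with poly I:C was above all 3 controls, and within the sets the difference with poly I:C alone was 1.98, 1.91 and 2.19 on the log2 scale. XBP1 rose 4.05-fold with poly I:C (log2 2.02, SE 0.36, adjusted p = 0.000877), by 2.44 (SE 0.36) with B. subtilis plus poly I:C, and by 2.00 (SE 0.36) with E. faecium and poly I:C. XBP1 is also a known target of signalling from Toll-like receptors in macrophages and is high in plasma cells. CREB3L2 (chr18:11533184-11666132), a membrane-bound factor that activates secretory genes, had 37.6, 70.2 and 62.9 CPM with poly I:C and 54.4, 45.7 and 47.1 CPM in control. Its groups overlapped, and the fold change was 0.21 (SE 0.35, adjusted p = 0.71). It had 30, 87.1 and 44.1 CPM with B. subtilis plus poly I:C, and 50.5, 82.9 and 66 CPM with E. faecium and poly I:C, again overlapping control.

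The ATF4 branch was the role with the highest share of genes raised by poly I:C, at 6 of 7, with a median log2 fold change of 1.40. ATF4 (chr5:8742964-8745752) had 989, 782 and 833 CPM with poly I:C, 1350, 842 and 1430 CPM with B. subtilis plus poly I:C, 769, 727 and 906 CPM with E. faecium and poly I:C, and 348, 426 and 429 CPM in control. No group with poly I:C overlapped control. ATF4 rose by 1.11 (SE 0.24, adjusted p = 0.0032) with poly I:C, by 1.59 (SE 0.24) with B. subtilis plus poly I:C, and by 1.00 (SE 0.24) with E. faecium and poly I:C. DDIT3 (chr5:22785441-22789867), which encodes the apoptosis-linked factor CHOP, had 153, 87.4 and 136 CPM with poly I:C, against 34.6, 52.6 and 63.4 CPM in control. It had 221, 94.9 and 264 CPM with B. subtilis plus poly I:C, and 92.7, 83.6 and 141 CPM with E. faecium and poly I:C. In each of these treatments the set B library was the lowest, and it was still above the controls. DDIT3 rose by 1.32 (SE 0.36, adjusted p = 0.016) with poly I:C, a call lost without poly I:C library 1 or without control library 1 (1.11, adjusted p = 0.0781). It rose by 1.95 (SE 0.37) with B. subtilis plus poly I:C and by 1.07 (SE 0.36, adjusted p = 0.0419) with E. faecium and poly I:C, a call lost without libraries 2 or 3 of that treatment or any 1 control library.

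PPP1R15A (chr6:54172038-54175461) encodes GADD34, which brings phosphatase to eIF2 and so restores translation. It had 169, 200 and 182 CPM with poly I:C, 351, 387 and 478 CPM with B. subtilis plus poly I:C, 360, 216 and 370 CPM with E. faecium and poly I:C, and 54.3, 48.2 and 67.5 CPM in control. Every library of both combined treatments was above every library with poly I:C alone, which in turn were all above control. The log2 fold changes against control were 1.70 (SE 0.42, adjusted p = 0.00836), 2.84 (SE 0.43) and 2.48 (SE 0.43) in the same order. SESN2 (chr6:85321982-85348044), a stress-induced inhibitor of mTORC1, had 59.2, 106 and 103 CPM with poly I:C, against 15.3, 38.6 and 34 CPM in control. It had 75.4, 115 and 117 CPM with B. subtilis plus poly I:C, and 59.6, 91.7 and 97.7 CPM with E. faecium and poly I:C. Set A was the lowest of these treatments, yet still above all controls, and SESN2 rose by 1.61 (SE 0.40, adjusted p = 0.00938), 1.81 (SE 0.41) and 1.50 (SE 0.40).

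CHAC1, which degrades glutathione, was a low-count gene of 9 to 480 counts per library, with 3.02, 24.1 and 11.3 CPM with poly I:C and 0.261, 2.97 and 1.23 CPM in control. The 3 sets lay far apart in each treatment, and the differences within sets A, B and C, with the prior count, were 3.14, 2.98 and 3.10 on the log2 scale. CHAC1 rose by 3.12 (SE 1.00, adjusted p = 0.0345) with poly I:C, a call lost without poly I:C libraries 2 or 3 or control libraries 1 or 3. ASNS, asparagine synthetase, rose by 1.40 (SE 0.36, adjusted p = 0.0112) with poly I:C, a call lost without control library 1. With B. subtilis plus poly I:C, CHAC1 rose by 3.17 (SE 1.00, adjusted p = 0.0219), a call lost without library 2 of that treatment or without control libraries 1 or 3. With E. faecium and poly I:C, ASNS rose by 1.06 (SE 0.36, adjusted p = 0.0436), a call lost without libraries 1 or 2 of that treatment or control libraries 1 or 3, and CHAC1 was at 2.79 (SE 0.99, adjusted p = 0.0523), or, with the library set as a block, at 2.95 (SE 0.25, adjusted p = 1.08e-06), which passed. TRIB3, a pseudokinase that dampens ATF4, was the member of the branch that did not pass: it had 31.2, 44.3 and 47.1 CPM with poly I:C and 26.3, 40.4 and 44.2 CPM in control, a fold change of 0.15 (SE 0.30, 95% interval -0.50 to 0.79). The upper end of that interval is below the fold changes of the other 6 genes of the branch, which have intervals of their own. The difference between TRIB3 and these genes was not tested.

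**Figure D3:**
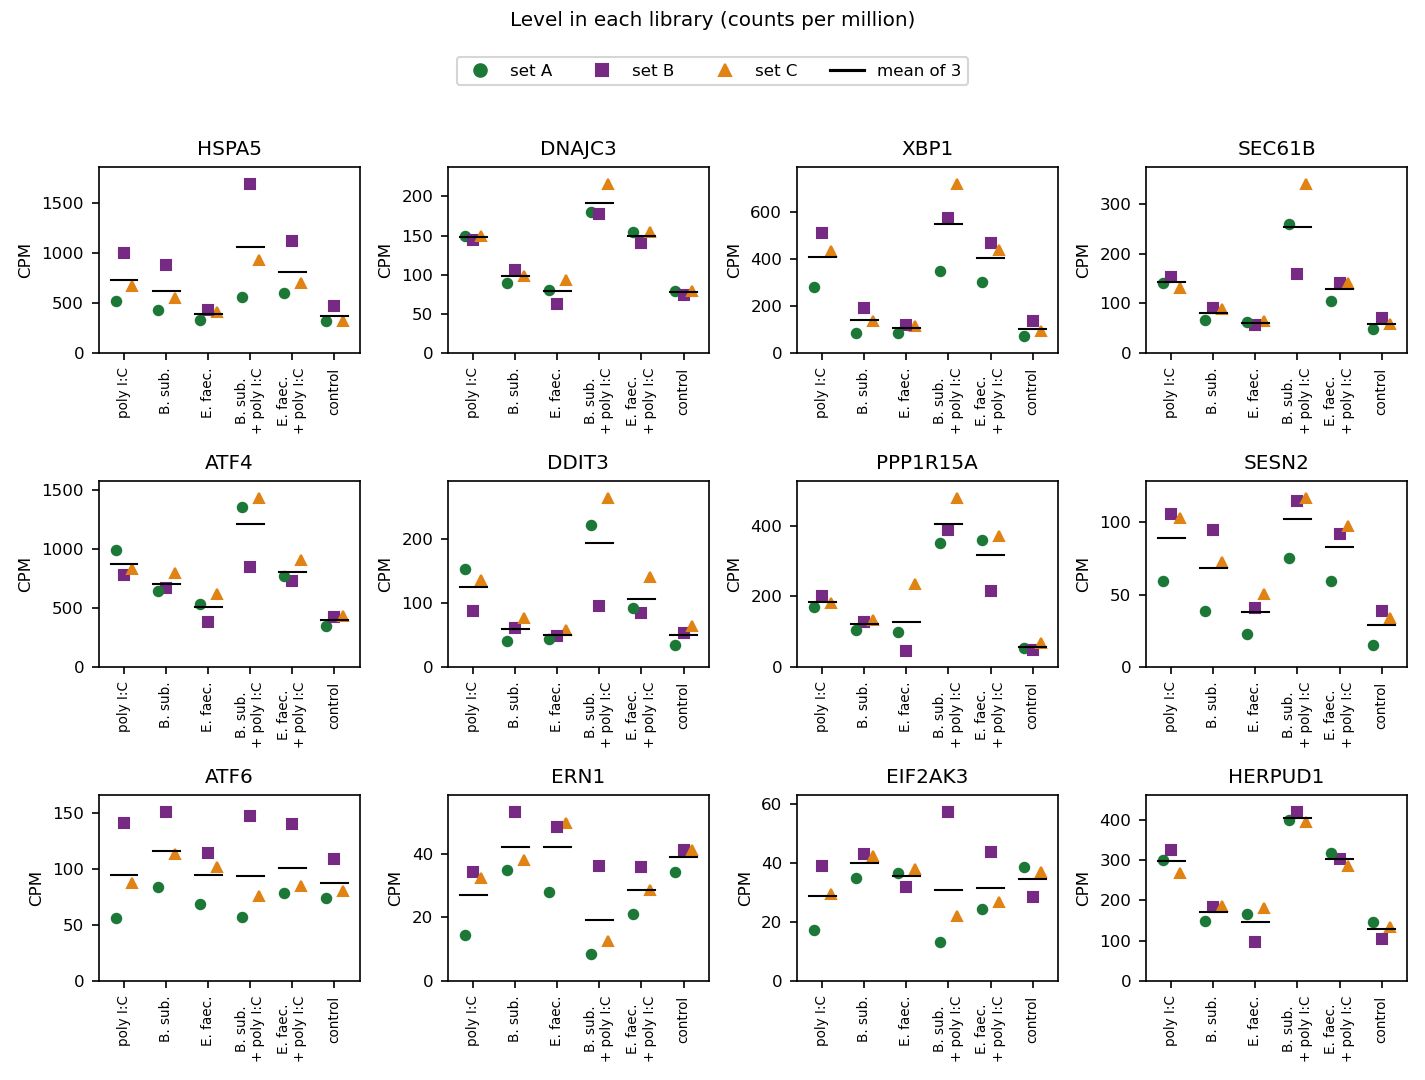
CPM of 12 of the genes in each of 18 libraries (symbols, by library set) with the mean of 3 (line), by treatment; each vertical axis starts at 0. XBP1, ATF4, PPP1R15A, SESN2, SEC61B and HERPUD1 are above all controls in the 9 libraries with poly I:C, while ATF6, ERN1 and EIF2AK3 overlap control or lie below it.

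Of translocation and degradation, the genes that rose with poly I:C were SEC61A1, SEC61B, HERPUD1 and DERL2. SEC61B (chr1:240985173-240991820), a small subunit of the channel through which new proteins enter the ER, had 142, 154 and 131 CPM with poly I:C, against 47.9, 70.8 and 58.5 CPM in control. It had 261, 159 and 341 CPM with B. subtilis plus poly I:C, and 105, 142 and 142 CPM with E. faecium and poly I:C. With B. subtilis and poly I:C, libraries 1 and 3 stood above all others, and library 2 was level with poly I:C alone. SEC61B rose by 1.27 (SE 0.24, adjusted p = 0.00164) with poly I:C, by 2.10 (SE 0.25) with B. subtilis and poly I:C, which was 1.42 without libraries 1 and 3, and by 1.13 (SE 0.24) with E. faecium and poly I:C. SEC61A1, the subunit that forms the pore, rose by 1.13 (SE 0.25, adjusted p = 0.00392) with poly I:C.

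HERPUD1 (chr6:18901171-18913427), a scaffold of the complex that exports misfolded proteins for degradation, had 299, 325 and 267 CPM with poly I:C, 400, 419 and 395 CPM with B. subtilis plus poly I:C, 317, 303 and 286 CPM with E. faecium and poly I:C, and 146, 105 and 135 CPM in control. The libraries with poly I:C were close together within each treatment, with no overlap with control. HERPUD1 rose by 1.21 (SE 0.22, adjusted p = 0.000959), 1.66 (SE 0.22) and 1.23 (SE 0.22). DERL2, a channel-like protein of the same complex, rose by 0.59 (SE 0.19, adjusted p = 0.0377) with poly I:C, a call lost without poly I:C libraries 1 or 2 or control libraries 1 or 3, without the filter on low counts, and with the pig number as a block. The ubiquitin ligase SYVN1 (0.33, SE 0.16), its partner SEL1L (-0.03, SE 0.35), the mannose-trimming EDEM1 (-0.08, SE 0.32) and DERL1 (-0.04, SE 0.14) did not pass.

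B. subtilis alone against control raised 0 of the 34 genes past the threshold, against 4.44% of all genes tested. At an unadjusted p of 0.05, 11 of the 34 genes passed, against 17.1% of all genes, and DESeq2 called 3 (ATF4, ASNS and SESN2), against 8.42% of all genes. With the library set as a block, 11 genes rose and 0 fell, against 18.4% of all genes: HSPA5, HSP90B1, HYOU1, DNAJB9, MANF, ATF4, CHAC1, ASNS, PPP1R15A, SESN2 and SEC61A1. All 3 libraries lay above all controls in 13 of the 34 genes and below them in 1 (DERL1), against 13% and 14.3% of all genes. Of the 34 genes, 25 were higher with B. subtilis than in control in each of the 3 sets, and 2 (CANX and DERL1) were lower in each, against 25.9% and 30.6% of all genes. The median log2 fold change of the ATF4 branch was 1.09, of the chaperones 0.30, and of all genes tested -0.02.

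ATF4 had 644, 668 and 798 CPM with B. subtilis, and SESN2 had 39, 94.8 and 72.6 CPM. Against the control values given above, both groups lay above control without overlap. Within the sets A, B and C, ATF4 was higher by 0.89, 0.65 and 0.90 on the log2 scale and SESN2 by 1.34, 1.29 and 1.09. The fold changes without the block were 0.81 (SE 0.24, adjusted p = 0.0648) for ATF4 and 1.23 (SE 0.40, adjusted p = 0.103) for SESN2, and with it 0.80 (SE 0.18, adjusted p = 0.00703) and 1.25 (SE 0.16, adjusted p = 0.000114). ASNS with 68, 140 and 113 CPM gave 1.10 (SE 0.36, adjusted p = 0.104) and, with the block, 1.13 (SE 0.19, adjusted p = 0.000705). CHAC1 with 1.95, 15.5 and 4.6 CPM was higher in the sets by 2.53, 2.34 and 1.82. PPP1R15A had 104, 126 and 133 CPM with B. subtilis, above all controls. DDIT3, with 40.8, 61.7 and 75.8 CPM, overlapped control at 0.24 (SE 0.36, adjusted p = 0.844), and did not pass with the block either (adjusted p = 0.619).

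HSPA5 had 433, 882 and 554 CPM with B. subtilis, higher than control in sets A, B and C by 0.46, 0.92 and 0.79 on the log2 scale. Set A with B. subtilis lay under the set B control, so that the groups overlapped, and the fold change was 0.76 (SE 0.39, adjusted p = 0.343), or 0.71 (SE 0.19, adjusted p = 0.0167) with the block. XBP1 had 85.8, 193 and 136 CPM with B. subtilis, at 0.46 (SE 0.34, adjusted p = 0.582), and did not pass with the block (adjusted p = 0.0848). DNAJC3 had 89.5, 106 and 98.1 CPM, DNAJB11 51.2, 63.8 and 55.3 CPM, SEC61B 66, 90.4 and 88.1 CPM, and HERPUD1 148, 183 and 185 CPM. All 4 were higher than control in each set, and none passed. ATF6 had 84.2, 151 and 113 CPM, ERN1 35, 53.2 and 38.2 CPM, EIF2AK3 35, 43 and 42.3 CPM, and CREB3L2 31.9, 58.9 and 40.6 CPM with B. subtilis, all overlapping control. The neutrophil and mast cell list, nearly all S100A8, S100A9 and S100A12, summed to 5470 to 7760 CPM with B. subtilis, against 1320 to 3410 CPM in control, with 0 of its 7 tested genes past the threshold. With B. subtilis ELANE was at 0 to 0.112 CPM, CXCR2 at 13.8 to 49 CPM and CSF3R at 21.1 to 33.6 CPM. In control CXCR2 was at 2.86 to 49.6 CPM and CSF3R at 33.7 to 107 CPM. The part of this list in the values above was not tested.

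E. faecium alone against control raised 0 of the 34 genes, against 0% of all genes tested. At an unadjusted p of 0.05 the test called 1 of the 34 genes and 278 of 13592 genes, and DESeq2 called 0 of the 34. The gene at that unadjusted level was PPP1R15A, with 97.9, 44.4 and 236 CPM with E. faecium, at 1.15 (SE 0.41, adjusted p = 1). Sets A and C were above all controls, set B below them. ATF4 had 537, 380 and 614 CPM and SESN2 had 23.2, 40.9 and 50.8 CPM, at 0.35 (SE 0.23) and 0.39 (SE 0.39). HSPA5 had 335, 428 and 413 CPM (0.09, SE 0.39, 95% interval -0.73 to 0.91), XBP1 84.4, 117 and 113 CPM (0.07, SE 0.34), and DDIT3 43.1, 48.2 and 57.6 CPM (-0.02, SE 0.36). These groups all overlapped control. DNAJC3 had 80.4, 62.5 and 93.1 CPM, DNAJB11 41.9, 43.7 and 46.1 CPM, SEC61B 61.9, 57.5 and 64.9 CPM, and HERPUD1 165, 95.9 and 180 CPM. ATF6 had 68.9, 114 and 102 CPM, ERN1 28.1, 48.6 and 49.7 CPM, EIF2AK3 36.5, 32 and 38 CPM, and CREB3L2 34.8, 51.2 and 42.8 CPM with E. faecium. In none of the 34 genes did the 3 E. faecium libraries stand apart from the 3 controls, while they lay above them in 1.76% and below them in 2.18% of all genes.

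**Figure D4:**
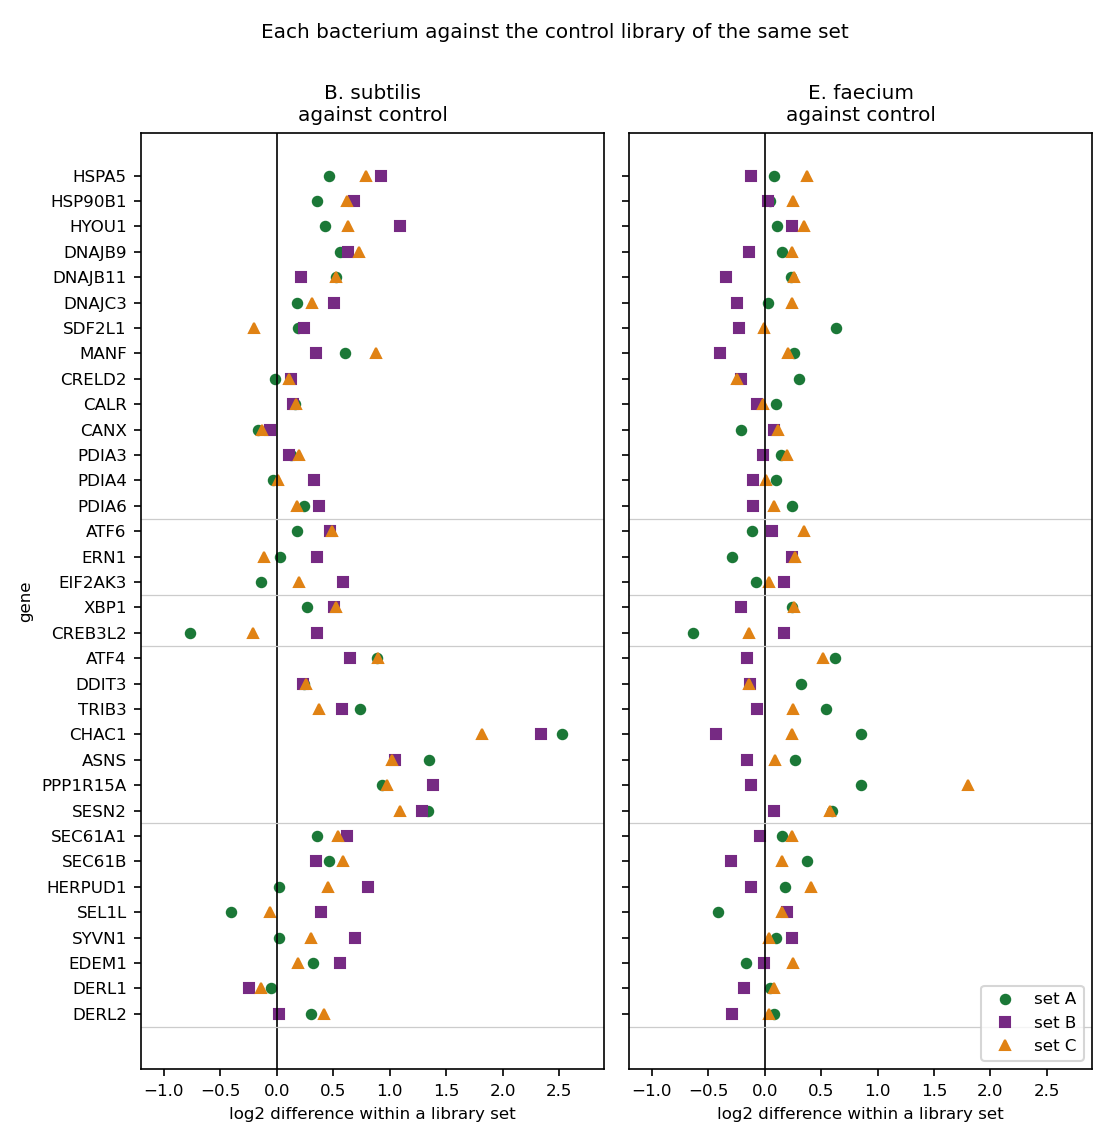
Log2 difference of each bacterium alone against the control library of the same set (symbols for sets A, B and C) for each of the 34 genes, by role. With B. subtilis 25 genes have all 3 symbols to the right of 0, CHAC1 the farthest; with E. faecium 4 genes do.

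B. subtilis against E. faecium, without poly I:C, gave 0 of the 34 genes past the threshold, against 0.177% of all genes, with 5 at an unadjusted p of 0.05, against 8.59% of all genes, and 0 by DESeq2. With the library set as a block, 4 genes were higher with B. subtilis, against 6.82% of all genes: DNAJB9 (0.55, SE 0.14, adjusted p = 0.0278), CHAC1 (2.22, SE 0.27, adjusted p = 0.000553), ASNS (1.08, SE 0.19, adjusted p = 0.00373) and SESN2 (0.83, SE 0.16, adjusted p = 0.0063). HSPA5, with 433, 882 and 554 CPM with B. subtilis and 335, 428 and 413 CPM with E. faecium, differed by 0.67 (SE 0.39, 95% interval -0.16 to 1.49).

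Adding a bacterium to poly I:C changed none of the 34 genes past the threshold. B. subtilis with poly I:C against poly I:C alone called 0 of the 34 genes, against 0% of all genes, with 10 at an unadjusted p of 0.05, against 10.5% of all genes, and 1 (CALR) by DESeq2, against 0.0441% of all genes. All 3 libraries of the combined treatment lay above all 3 with poly I:C in 10 genes, among them PPP1R15A, SDF2L1, MANF, CRELD2 and SEC61B, as they did in 2.63% of all genes. The 3 libraries include numbers 1 and 3, in which short genes were high. Without library 2 of B. subtilis with poly I:C, 8 of the 34 genes passed, against 15.1% of all genes. SDF2L1 (1.58, SE 0.25, adjusted p = 0.00377), MANF (1.14, SE 0.29), CRELD2 (1.14, SE 0.20), SEC61B (1.08, SE 0.20), DERL2 (0.71, SE 0.16), DNAJB11 (0.65, SE 0.19) and CALR (0.58, SE 0.18) then rose, and ERN1 (-1.35, SE 0.38, adjusted p = 0.0281) fell. The 2 libraries left are those in which short genes were high and long genes low.

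**Figure D5:**
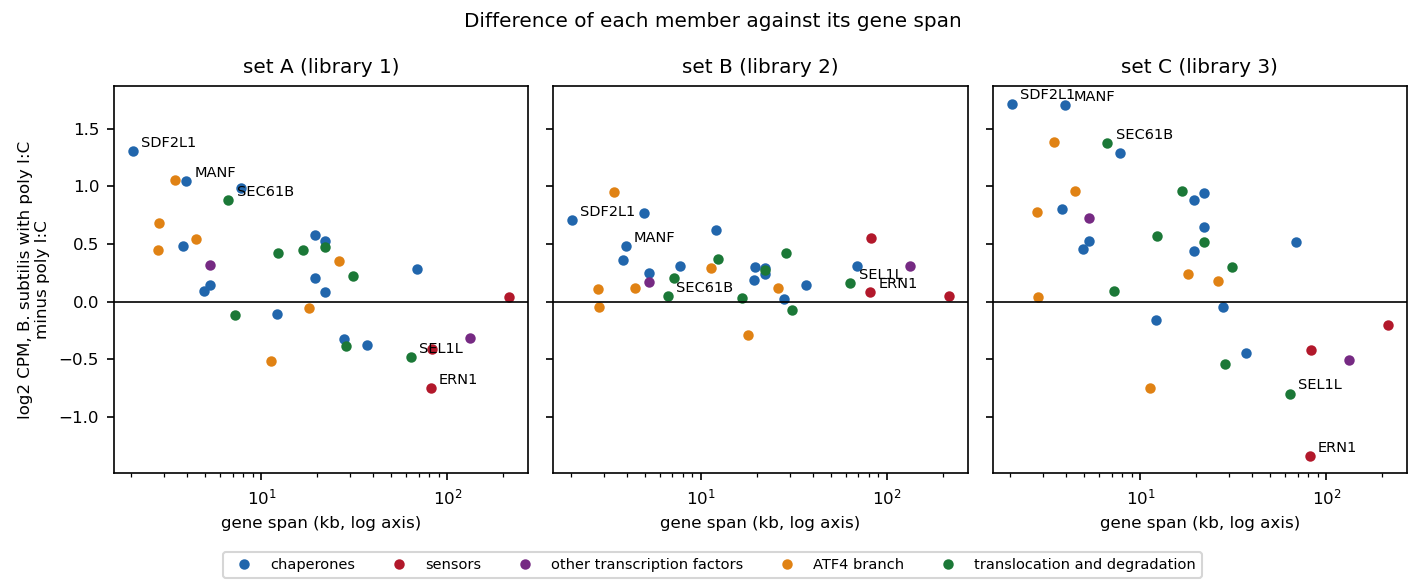
Log2 CPM of each of the 34 genes with B. subtilis and poly I:C minus poly I:C alone (vertical) against its genomic span in kb (horizontal, log axis), in library sets A, B and C, coloured by role. In sets A and C short genes such as SDF2L1 and MANF are among the highest and ERN1 lies lowest; in set B the slope is weaker.

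Within the 3 sets, SDF2L1 was higher by 1.31, 0.71 and 1.72 with B. subtilis and poly I:C than with poly I:C alone, MANF by 1.05, 0.48 and 1.71, and SEC61B by 0.88, 0.05 and 1.38. ERN1 differed by -0.75, 0.08 and -1.34, and SEL1L by -0.48, 0.16 and -0.80. PPP1R15A, which spans 3.42 kb, differed by 1.06, 0.95 and 1.39, with set B close to the others (1.14, SE 0.41, adjusted p = 0.447). The rank correlation of these differences with span over the 34 genes was -0.65, -0.19 and -0.65 in sets A, B and C, and over all genes with a span -0.26, 0.11 and -0.35. Over the 34 genes, other comparisons had such correlations too. Against control, those over the 34 genes were -0.62, -0.37 and -0.49 with poly I:C, -0.53, -0.21 and -0.44 with B. subtilis, and -0.75, 0.52 and -0.04 with E. faecium. Over all genes with a span, they were weaker or of the other sign with poly I:C (-0.14, 0.10 and 0.09) and with B. subtilis (-0.10, 0.06 and -0.04). With E. faecium they were -0.24, 0.12 and 0.13. For E. faecium with poly I:C against poly I:C they were 0.45, 0.29 and -0.39, and over all genes 0.37, 0.12 and -0.18. The part of gene length in these differences was not tested.

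E. faecium with poly I:C against poly I:C called 0 of the 34 genes, against 0% of all genes, with 0 at an unadjusted p of 0.05 among the 34, 38 among all genes and 0 of the 34 by DESeq2. The median log2 fold change over the 34 genes was 0.00. HSPA5 differed by 0.15 (SE 0.39, 95% interval -0.68 to 0.97), DNAJC3 by 0.02 (SE 0.16, 95% interval -0.31 to 0.35) and XBP1 by -0.02 (SE 0.34, 95% interval -0.75 to 0.71). PPP1R15A, at 0.78 (SE 0.41, 95% interval -0.08 to 1.65), was the 1 gene of the 34 in which the groups did not overlap. Over all genes, the 3 libraries of the combined treatment lay above those with poly I:C in 1.1% and below them in 1.11%.

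B. subtilis with poly I:C against E. faecium with poly I:C called 0 of the 34 genes, against 0% of all genes, with 11 at an unadjusted p of 0.05, against 16.5% of all genes, and 7 by DESeq2, against 4.11% of all genes. With the library set as a block 8 genes were higher with B. subtilis and poly I:C, against 8.51% of all genes: HSP90B1, DNAJB11, SDF2L1, MANF, CRELD2, CALR, SEC61B and DERL2, at log2 fold changes of 0.59 to 1.32. Without library 2 of B. subtilis with poly I:C, 13 of the 34 genes passed, against 24% of all genes. Within the sets, SDF2L1 differed by 2.02, 0.48 and 1.40 and CRELD2 by 1.64, 0.39 and 1.28, again smallest in set B.

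The change with poly I:C in the presence of B. subtilis minus the change in its absence, an interaction, passed in 0 of the 34 genes, against 0.0368% of all genes, with 3 at an unadjusted p of 0.05, against 8.95% of all genes, and 0 by DESeq2. With the library set as a block, 3 genes of the ATF4 branch were negative and passed, against 3.83% of all genes: CHAC1 (-2.11, SE 0.34, adjusted p = 0.00619), ASNS (-1.17, SE 0.26, adjusted p = 0.0259) and SESN2 (-1.02, SE 0.22, adjusted p = 0.0239). In these 3 genes the combined treatment was less than the sum of both log2 changes: ASNS had 108, 138 and 134 CPM with B. subtilis plus poly I:C, 113, 168 and 114 CPM with poly I:C, 68, 140 and 113 CPM with B. subtilis, and 26.5, 67.4 and 55.8 CPM in control. Without library 2 of the combined treatment and without a block, 2 other genes, SDF2L1 (1.51, SE 0.33, adjusted p = 0.031) and CRELD2 (1.06, SE 0.27, adjusted p = 0.0452), were positive and passed, against 3.72% of all genes. The interaction of E. faecium and poly I:C passed in 0 of the 34 genes, against 0% of all genes, with 0 of the 34 and 95 of all genes at an unadjusted p of 0.05 and 0 of the 34 by DESeq2.

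The 3 library sets differed in these genes in the same order under different treatments. In 8 of the 34 genes, HSPA5, HSP90B1, CANX, PDIA4, ATF6, CHAC1, ASNS and SEC61A1, set B was the highest of the 3 in all 6 treatments, and in 14 genes it was the highest in at least 5; over all genes these shares were 9.6% and 18.3%. Neither set A nor set C was highest in all 6 treatments in any of the 34 genes, against 9.61% and 4.41% of all genes. Of the 34 genes, HSPA5, HYOU1, DNAJB9, ATF6, ERN1, XBP1, TRIB3, CHAC1, ASNS, SESN2 and SEC61A1 were lowest in set A in all 6 treatments. JCHAIN was too. The share of all genes lowest in set A was not determined. ATF4, DDIT3 and PPP1R15A had another order, with set C highest in 5 of 6 treatments. Sets were found without these 34 genes, but so that libraries of a set vary together, and whether a set is an animal is not given by the labels.

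Further genes of the same pathways were grouped in 6 lists. Of all 13592 genes tested, 1757 (12.9%) rose and 1298 fell with poly I:C alone. Of 28 other genes of translocation, signal sequence recognition and glycan transfer, 12 rose and 0 fell with poly I:C (median 0.52), among them SRP9, a subunit of the signal recognition particle, with 92.9 ± 0.524 CPM against 40.2 ± 3.15 CPM in control (SD, n = 3; log2 1.21, SE 0.15, adjusted p = 5.55e-05). Of 26 other folding factors 3 rose: the oxidoreductases ERO1B (1.42, SE 0.27) and ERP44 (0.70, SE 0.17), and DNAJC1, a J-domain protein of the ER membrane, with 106 ± 18.9 CPM against 23.4 ± 3.38 CPM in control (2.18, SE 0.26, adjusted p = 5.55e-05). Of 23 other degradation genes 2 rose, the ER membrane selenoproteins SELENOK (1.11, SE 0.21, adjusted p = 0.00126) and SELENOS (1.12, SE 0.22, adjusted p = 0.00181). Of 18 other regulators 4 rose and 2 fell: TRAF2, the adaptor that links IRE1 to kinase signalling, rose by 1.61 (SE 0.25, adjusted p = 0.000386), and the others were CREB3L1, BAK1 and RTCB, the ligase that joins the XBP1 messenger after splicing (0.79, SE 0.18, adjusted p = 0.00569). MBTPS1 and MBTPS2, the Golgi proteases that cut ATF6, fell by 0.90 (SE 0.19, adjusted p = 0.00342) and by 1.09 (SE 0.26, adjusted p = 0.00748). Of these lists, DNAJC1, SELENOK, SRP9, TRAF2, MBTPS1 and, below, EIF2AK2, WARS and SLC1A5 had the smallest adjusted p in their direction; the other genes were singled out after their values were seen.

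Of 12 genes of eIF2 kinases and eIF2 control, 1 rose with poly I:C: EIF2AK2, which encodes the kinase PKR that is activated by double-stranded RNA and induced by interferon, with 358 ± 91.4 CPM against 88 ± 34.1 CPM in control (2.02, SE 0.41, adjusted p = 0.00231). Of 33 other genes of the ATF4 and amino acid response, 9 rose and 3 fell, against 1757 and 1298 of all 13592 genes tested. WARS, a tRNA synthetase that interferon also induces, had 3310 ± 1080 CPM with poly I:C against 301 ± 65.8 CPM in control (3.46, SE 0.44, adjusted p = 7.34e-05). The glutamine carrier SLC1A5 fell by 0.92 (SE 0.24, adjusted p = 0.0117), as did JDP2 and XPOT, by 1.79 and 1.34. With B. subtilis alone, 2.75% of all 13592 genes tested rose and 230 genes fell. In the 6 lists, 4 genes rose and 0 fell. They were 1 of 28 translocation genes, 1 of 18 regulators and 2 of 33 genes of the ATF4 and amino acid response. None of the 26 folding factors, 23 degradation genes or 12 eIF2 genes rose. The 4 genes were the stress-induced factor ATF3 (1.79, SE 0.49, adjusted p = 0.0494), the mTORC1 inhibitor DDIT4 (1.15, SE 0.29, adjusted p = 0.0334), SRP9 (0.81, SE 0.14, adjusted p = 0.00575) and MAP3K5, a kinase that TRAF2 links to IRE1 (1.42, SE 0.33, adjusted p = 0.0247). With B. subtilis and poly I:C against control, 20 of the 28 translocation genes, 11 of the 26 folding factors and 11 of the 23 degradation genes rose, against 19% of all genes; with E. faecium and poly I:C these were 9, 3 and 2, against 13.3% of all genes.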

How the data were processed

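The deposited table holds 1 raw count per gene and library, as whole numbers that sum to a different total in each library; the authors applied no normalization to these counts, as the totals show. Per the submitters' processing notes, Sscrofa11.1 is the build named, with DESeq2 as the tool. Aligner, counter, annotation release and use of strand were not given in the sources used here, so overlapping or antisense reads cannot be told apart. Of 30686 rows, 30335 matched the RefSeq genes of Sscrofa11.1 by ID; the 351 others, 0.515 to 1.04% of a library's counts, stayed in totals and tests. There were 0 columns of other samples.

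Counts were scaled by TMM, filtered by filterByExpr (minimum count 10) and fitted in R 4.3.3 with edgeR 4.0.16, as 1 mean per treatment over all 18 libraries; the quasi-likelihood F test gave two-sided p-values, adjusted by Benjamini and Hochberg over 13592 genes. The SE follows from the F value. The method was tested on simulated data. CPM are counts over TMM-scaled totals. Alternatives were DESeq2 1.42.0, relative log expression scaling, no filter, blocks for pig number and library set, and each library left out; leaving out both libraries of B. subtilis with poly I:C that stood apart by gene length was chosen after seeing the data.

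The labels give each treatment pigs 1 to 3, which would pair the libraries, but same-numbered libraries correlated with a median r of -0.34, so the number is not a block in the results above. Sets were assigned by trying all assignments within treatments. Nothing states that the libraries of a treatment are separate animals beyond the pig number, so p-values measure the spread between these libraries. Genes with values in every library were the 3 sensors, HSPA5, XBP1, ATF4, DDIT3 and, per role, up to 2 others with the smallest p for any difference; other genes given in full were chosen after their values were seen. The 34 genes and all lists were chosen with earlier results of these data known.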

Additional observations from a re-analysis of the deposited data

How the results depend on the processing

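Of 784 refitted log2 fold changes of the 14 genes with values in every library, over the 3 single treatments against control and either bacterium added to poly I:C against poly I:C alone, 771 kept their side of the threshold, 56 of them with a change of sign in a value that passed in neither fit; 11 newly passed, 2 no longer passed and 0 called values reversed. With the pig number as a replicate block, 14 of the 34 genes passed with poly I:C against control, against 15 without it, and no other count moved by over 1.5 times. Counts that moved under DESeq2 were 3 for B. subtilis against control, 1 for B. subtilis with poly I:C against poly I:C, and 7 for the combined treatments against each other, all against 0. With the library set as a block they were 11 for B. subtilis against control, 4 for B. subtilis against E. faecium, 8 for the combined treatments against each other and 3 for the interaction of B. subtilis and poly I:C, all against 0. Leaving out 1 library at a time gave 11 to 16 genes for poly I:C (11 without control library 1, where DDIT3, CHAC1, ASNS and DERL2 were lost), 20 to 25 for B. subtilis with poly I:C and 9 to 13 for E. faecium with poly I:C, each against control. The counts over all genes moved as well, from 2014 to 2563, 3507 to 6191 and 2142 to 2755 in the same order. For E. faecium with poly I:C, the 9 came without control library 1 (15.7% of all genes, against 14 genes with it) and lacked HSPA5, DNAJB11, DDIT3, ASNS and SESN2. It gave 0 to 8 for B. subtilis with poly I:C against poly I:C, 0 to 13 for the combined treatments and 0 to 2 for the interaction, the upper values all without library 2 of B. subtilis with poly I:C. The cause was not tested. Among any-difference counts, the range was 18 to 23, and 3174 to 6124 over all genes. Under DESeq2 or relative log expression scaling, the median log2 fold change of all genes stayed between -0.04 and 0.02. Depth limits CHAC1 most, which had 9 counts in its lowest library.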
